A study of Mus musculus with 24 samples.

Results

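The 10 genes described here are Mlxipl and 9 genes of fatty acid synthesis, Srebf1, Fasn, Acaca, Acly, Scd1, Scd2, Elovl6, Thrsp and Pnpla3, taken by symbol from the 48820 entries of each of 4 count tables, and all 10 were found in all 4. Mlxipl was chosen by its high read counts in Smad4-deleted liver macrophages, so its values in that comparison are given as a description with no test. The other 9 were listed as genes of the same pathway.

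RNA was sequenced from sorted liver macrophages, sorted liver endothelial cells (ECs) and whole livers of C57BL/6 mice, with 8 groups of 3 libraries each. In Bmp9/10-HSC-KO mice, LratCre removed floxed alleles of Gdf2, which encodes BMP9, and of Bmp10. Lrat marks hepatic stellate cells (HSCs), so the deletion was made in the cells that send these ligands and not in the cells that were sorted. Their littermates were the controls, labelled BMP9/10 control or control. In the second experiment Vav1Cre removed a floxed Smad4, the shared signalling partner of the receptor-regulated Smads, from hematopoietic cells (labelled Smad4FF cKO, Smad4 cKO below), and Smad4FF mice were the controls. Vav1Cre acts in all blood lineages, so the deletion was not limited to macrophages. Sorted cells came from mice of 8 to 10 weeks (macrophages CD45+ Ly6C- F4/80+ CD64+, ECs CD45- CD31+), and whole livers from mice of 12 weeks. Whether the mice had been fed or fasted is not given in the sources used here.

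Lipogenesis turns surplus sugar into fatty acids. Citrate leaves the mitochondrion and ATP citrate lyase (Acly) cuts it into acetyl-CoA, acetyl-CoA carboxylase (Acaca) makes malonyl-CoA, and fatty acid synthase (Fasn) builds the chain, which Elovl6 lengthens and the stearoyl-CoA desaturases Scd1 and Scd2 make monounsaturated. The transcription factors ChREBP, encoded by Mlxipl, and SREBP1, encoded by Srebf1, switch these genes on in response to glucose and insulin. Thrsp (Spot 14) is a small protein that accompanies active lipogenesis, and Pnpla3 is a lipid droplet protein whose gene follows the same signals. Hepatocytes and adipocytes are the classical sites of this pathway.

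The libraries held 60911527 to 110879155 counts each. The targeted genes followed the labels. Gdf2 was at 9.74 to 22.9 CPM (reads scaled to a fixed library total) in control livers and at 2.10 to 3.61 CPM in HSC-KO livers, and Bmp10 at 2.03 to 3.48 and 0.0880 to 0.259 CPM. Smad4 was at 35.3 to 42.8 CPM in Smad4FF macrophages and at 12.6 to 17.2 CPM in Smad4 cKO macrophages. The summed level of 7 macrophage markers was 14560 to 17950 CPM in the macrophages of the BMP9/10 experiment, 17490 to 20880 CPM in Smad4FF macrophages and, without overlap, 9991 to 14080 CPM in Smad4 cKO macrophages. That of 4 cholangiocyte markers was 1.21 to 1.33 CPM in Smad4FF and 6.17 to 9.19 CPM in Smad4 cKO macrophages. The summed level of 8 endothelial markers was 13310 to 14660 CPM in control ECs and 9873 to 11580 CPM in HSC-KO ECs, and that of 6 markers of the Kupffer cell, the resident liver macrophage, 265 to 294 CPM and 1.86 to 10.7 CPM, with Clec4f, Timd4, Vsig4 and Marco at 0 in all HSC-KO ECs. The Kupffer set includes Clec1b, whose protein CLEC2 the study also uses as a surface marker of hepatic ECs. The macrophage markers overlapped in ECs, at 22.3 to 29.9 CPM in controls and 24.6 to 35.1 CPM in the HSC-KO. The part of these marker differences in the results was not tested. The summed level of the Kupffer cell markers was 26570 to 30060 CPM in BMP9/10 control macrophages and 50.8 to 263 CPM in HSC-KO macrophages, and 23020 to 28840 and 879 to 995 CPM in the Smad4 experiment. The mutant macrophages therefore carried macrophage markers but few Kupffer markers, and a change within cells cannot be told apart from a change in which macrophages were sorted. In such bulk samples fewer cells of a type and less RNA per cell cannot be told apart either. Mice of both sexes were mixed by the Xist level, with 1 of 3 control and 2 of 3 HSC-KO libraries above 1 CPM in the BMP9/10 macrophages and in the ECs, 3 of 3 and 2 of 3 in the livers, and none in the Smad4 experiment.

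Mlxipl lies on the plus strand at chr5:135089890-135138382 (GRCm38, GENCODE vM21). Srebf1 (chr11:60199089-60222581), Fasn (chr11:120805846-120824547) and Acly (chr11:100476353-100528000) lie on the minus strand of the same chromosome, and Acaca (chr11:84129672-84401651) on its plus strand. Scd1 (chr19:44394455-44407879, minus strand) and Scd2 (chr19:44293674-44306864, plus strand) are near each other, while Elovl6 (chr3:129532355-129638495) and Pnpla3 (chr15:84167837-84187236) lie on plus strands and Thrsp (chr7:97412938-97417730) on a minus strand. All 10 are protein-coding. RefSeq (GRCm38.p6) start windows, 250 bases before to 50 bases after a start, were matched by symbol for 8 of the 10 genes, with 11 windows. Both Mlxipl windows are shown because Mlxipl is the gene chosen by its counts in Smad4-deleted macrophages, and those of Fasn and Thrsp because these genes rose together in ECs. Capitals mark an E-box (CACGTG, the core that ChREBP pairs bind), a sterol regulatory element (TCACNCCAC), a CCAAT box (CCAAT) or a GC-rich Smad element (GGCGCC), each on either strand.
Mlxipl first window, chr5:135089640-135089939, plus strand: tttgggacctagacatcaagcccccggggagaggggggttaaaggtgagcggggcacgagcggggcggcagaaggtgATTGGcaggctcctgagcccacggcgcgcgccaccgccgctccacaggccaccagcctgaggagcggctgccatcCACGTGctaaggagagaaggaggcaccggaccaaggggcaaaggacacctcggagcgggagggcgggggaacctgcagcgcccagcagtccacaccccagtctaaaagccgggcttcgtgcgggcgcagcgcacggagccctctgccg
Mlxipl second window, chr5:135106641-135106940, plus strand: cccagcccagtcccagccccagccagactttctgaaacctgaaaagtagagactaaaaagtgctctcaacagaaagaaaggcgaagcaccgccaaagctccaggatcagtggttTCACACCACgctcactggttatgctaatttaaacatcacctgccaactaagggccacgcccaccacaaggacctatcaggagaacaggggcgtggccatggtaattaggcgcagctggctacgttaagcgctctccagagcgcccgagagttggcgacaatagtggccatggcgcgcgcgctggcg
Fasn, chr11:120824498-120824797, minus strand: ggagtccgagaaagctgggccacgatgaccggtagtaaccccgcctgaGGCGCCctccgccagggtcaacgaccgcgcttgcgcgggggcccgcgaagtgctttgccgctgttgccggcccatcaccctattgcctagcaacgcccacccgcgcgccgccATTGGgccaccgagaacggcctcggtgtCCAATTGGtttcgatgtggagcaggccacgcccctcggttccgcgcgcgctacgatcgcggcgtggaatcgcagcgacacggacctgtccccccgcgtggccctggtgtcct
Thrsp, chr7:97417501-97417800, minus strand: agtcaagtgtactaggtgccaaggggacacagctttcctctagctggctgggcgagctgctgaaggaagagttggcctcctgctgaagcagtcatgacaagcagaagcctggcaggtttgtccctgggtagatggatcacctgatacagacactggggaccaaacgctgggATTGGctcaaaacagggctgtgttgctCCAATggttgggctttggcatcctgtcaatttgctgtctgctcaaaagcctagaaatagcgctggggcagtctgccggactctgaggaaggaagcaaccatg

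Mlxipl held 1 E-box and 1 CCAAT box in its first window and 1 sterol regulatory element in its second. Of 32851 mouse windows of the same length, 7.15% held an E-box, 1.24% a sterol regulatory element, 37.4% a CCAAT box and 11.9% a GGCGCC. The Fasn window held 1 GGCGCC and 3 CCAAT boxes, of which a pair overlapped on opposite strands (CCAATTGG), and the Thrsp window held 2 CCAAT boxes. A CCAAT box was present in 6 of the 8 matched genes, or in 7 of their 11 windows. No matched gene held the carbohydrate response element searched for (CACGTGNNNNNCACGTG, present in 0 of the 32851 windows) or the liver X receptor element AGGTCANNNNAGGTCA (0.0152% of windows), which says only that these letters were not in these windows.

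The first question was how the genes behave in macrophages that lack Smad4. Mlxipl was nearly silent in Smad4FF macrophages and abundant in Smad4 cKO macrophages, while none of the other 9 genes rose. Mlxipl had 53, 47 and 64 reads in Smad4FF macrophages against 4432, 6494 and 6209 reads in Smad4 cKO macrophages. After scaling by the trimmed mean of M values (TMM, the normalisation behind all CPM below unless stated) these were 0.546, 0.520 and 0.620 CPM against 45.7, 55.9 and 74.2 CPM. The lowest cKO library lay far above the highest control. The log2 fold change was 6.70 (SE 0.25), or 104-fold, and it was the rise of rank 20 among 17517 genes tested.

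**Figure D1:**
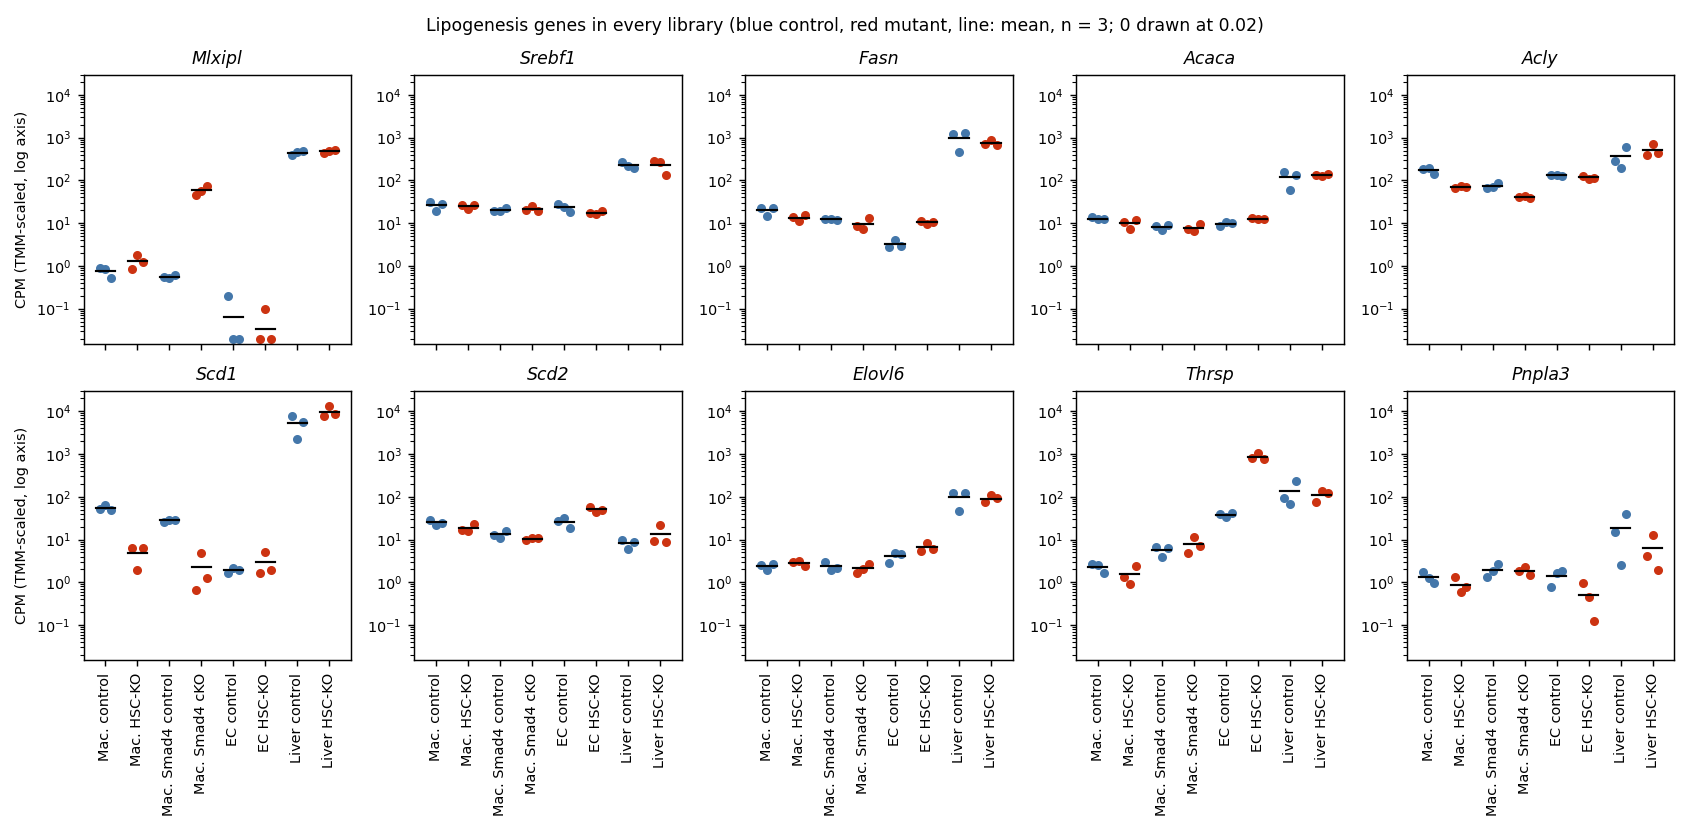
Level of each of the 10 genes in every library, in TMM-scaled CPM on a log axis, with 1 point per library and a line at the mean of 3. The 3 Smad4 cKO points of Mlxipl sit between 45.7 and 74.2 CPM, between the other macrophage groups and the livers, and the 3 HSC-KO EC points of Thrsp lie above all other libraries.

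Per kilobase of exon, Mlxipl moved from the last to the first place among the 10 genes within the Smad4 libraries. Its level was 0.102 ± 0.0094 CPM per kb (SD, n = 3) in the controls, the lowest of the 10, and 10.6 ± 2.61 CPM per kb in the cKO. Acly followed in the cKO at 7.66 ± 0.458, Srebf1 at 3.86 ± 0.515 and Thrsp at 3.53 ± 1.55 CPM per kb, and Srebf1 and Thrsp did not differ beyond their spread. Set against whole livers, which were counted in another table, Mlxipl reached 13.3% of the control liver mean in Smad4 cKO macrophages (61.8 against 466 CPM of the library total), compared with 0.114% in Smad4FF macrophages.

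RNA of hepatocytes, in which Mlxipl is abundant, was present in all macrophage libraries at a low level. By the summed level of 10 hepatocyte markers, all 10 of them above 3 counts, it made up 0.250% to 0.445% of the Smad4FF libraries and 0.147% to 0.497% of the Smad4 cKO libraries, taking control livers as the whole. Such a share corresponds to 1.16 to 2.07 CPM of Mlxipl in the controls, where 0.487 to 0.589 CPM was measured, and to 0.687 to 2.32 CPM in the cKO, where 48.5 to 78.3 CPM was measured. Single markers gave shares of 0.00248% to 2.58% in the cKO. Adipocyte markers summed to 0.0438 CPM or less in the cKO, with Adipoq and Lep at 0 in all 3 libraries. By the summed markers, the Mlxipl level measured was above the level for the hepatocyte share in each cKO library and below it in each control.

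The desaturase Scd1 was the gene that fell most. Smad4FF macrophages gave 25.95, 28.9 and 29.3 CPM, and Smad4 cKO macrophages 0.670, 4.75 and 1.28 CPM. The groups did not overlap, and cKO replicate 2 stood above the other 2. The log2 fold change was -3.64 (SE 0.67, adjusted p = 0.017 by edgeR's quasi-likelihood test with Benjamini-Hochberg adjustment over all genes), or 12.5-fold lower. The adjusted p was 0.055 without Smad4 cKO replicate 3, 0.065 without Smad4FF replicate 3 and 0.050 without Smad4FF replicate 2, with the log2 fold change between -4.85 (without cKO replicate 2) and -3.21 over all single libraries left out. The hepatocyte share corresponds to 13.8 to 24.6 CPM of Scd1 in the controls and 8.14 to 27.5 CPM in the cKO, and cKO replicate 2 had both the highest share and the highest Scd1. Its part in the Scd1 difference was not tested.

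Acly, the enzyme that supplies acetyl-CoA, fell less. Smad4FF macrophages gave 65.2, 69.1 and 87.4 CPM of it, and the cKO gave 39.9, 43.1 and 38.4 CPM, with no overlap. Its log2 fold change was -0.87 (SE 0.14, edgeR adjusted p = 0.011), or 1.83-fold lower, and the adjusted p was 0.060 without Smad4 cKO replicate 1, 0.051 with the replicate number as a block and 0.089 with all 24 libraries in the fit. The study called a gene differentially expressed past a log2 fold change of 1 as well, which left Scd1 alone (1 of 9, against 5.43% of all genes tested). The adjusted p for Srebf1, Fasn, Acaca, Scd2, Elovl6, Thrsp and Pnpla3 was between 0.32 and 0.95. In all, 0 of the 9 genes rose and 2 fell, against 7.74% of all genes tested that changed and 4.03% that fell. Groups did not overlap for 2 of the 9, against 29.4% of all genes tested. The median log2 fold change of the 9 was -0.14, against 0.04 over all genes tested.

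**Figure D2:**
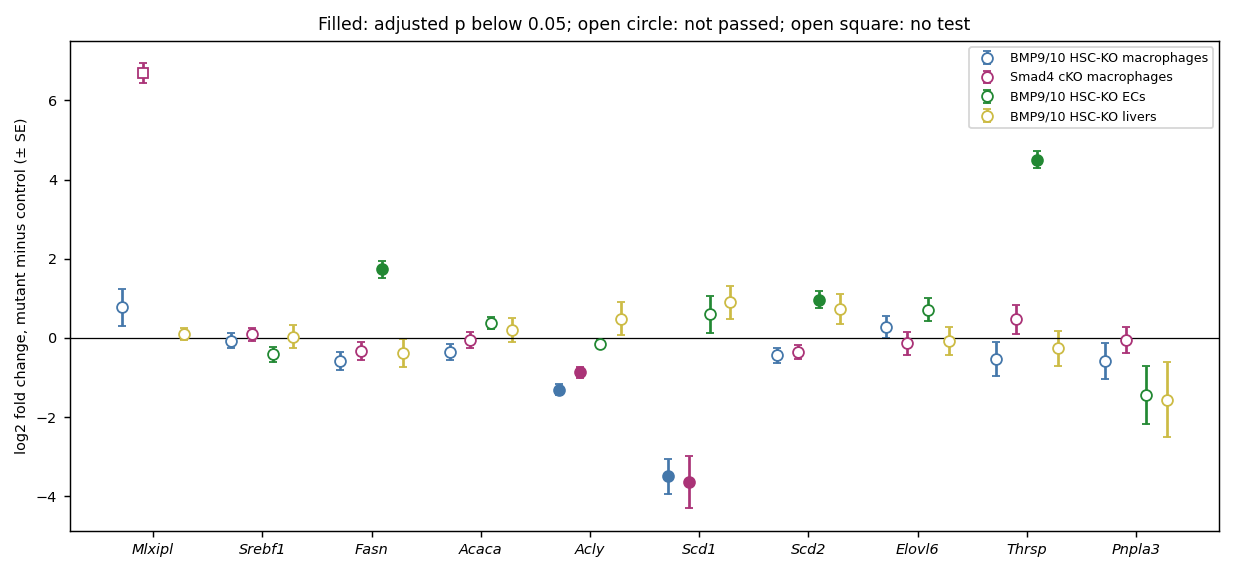
Log2 fold change of each gene, mutant minus control, with its SE, in the 4 comparisons (n = 3 per group). Mlxipl in the Smad4 cKO (6.70) has no test, Scd1 and Acly are below 0 in both macrophage comparisons, Thrsp and Fasn are above 0 in ECs, and Mlxipl in ECs is not drawn because it was not tested.

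Fasn, which builds palmitate, gave 12.6, 12.2 and 11.8 CPM in Smad4FF macrophages against 8.70, 7.30 and 12.97 CPM after the deletion, and the groups overlapped. Srebf1, the gene of SREBP1, was at 18.9 to 23.2 and 19.5 to 25.01 CPM. The genes that ChREBP is known to drive were at the following levels in these libraries, Acaca at 6.52 to 9.59 CPM, Elovl6 at 1.66 to 2.72 CPM, Pnpla3 at 1.52 to 2.27 CPM and Thrsp at 4.80 to 11.4 CPM. Each of these ranges overlapped that of the controls, which was 6.92 to 8.89, 1.99 to 2.93, 1.36 to 2.63 and 3.81 to 6.67 CPM. ECs, in which Thrsp is abundant, gave 5.05% to 11.95% of the RNA of the Smad4FF macrophage libraries and 7.72% to 10.9% of the cKO libraries by the median of 8 endothelial markers. These shares correspond to 1.74 to 4.13 CPM and 2.66 to 3.77 CPM of Thrsp, and their part in the Thrsp level was not tested.

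**Figure D3:**
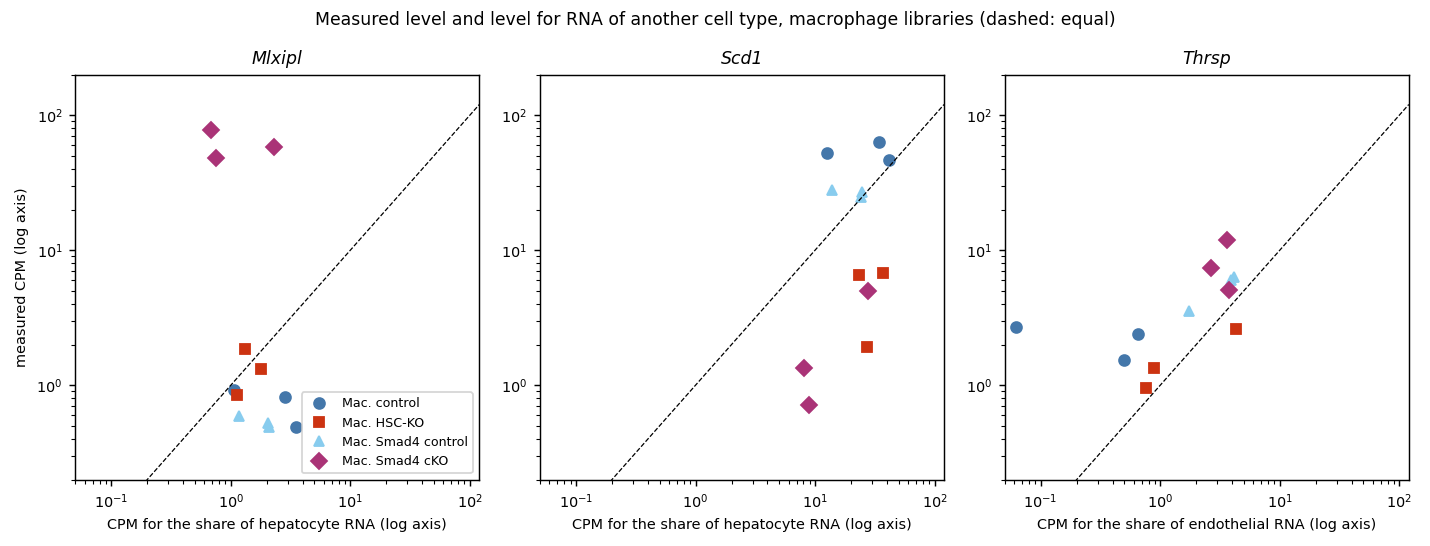
Measured level in each macrophage library against the level for the share of hepatocyte RNA (Mlxipl, Scd1) or endothelial RNA (Thrsp) in that library, both in CPM of the library total on log axes, with a dashed line where they are equal. Mlxipl in the 3 Smad4 cKO libraries (48.5 to 78.3 CPM) lies far above the line, and Scd1 in the 6 mutant libraries lies below it.

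The second question was whether macrophages of Bmp9/10-HSC-KO mice, which keep Smad4 but lose the ligands, show the same picture. Scd1 and Acly fell there too, and Mlxipl stayed low. The summed levels of other marker sets differed between these groups as well. The 8 endothelial markers were at 527.8 to 728 CPM in the controls and 30.4 to 95.6 CPM in the HSC-KO. The 7 T, NK and B cell markers were at 11.95 to 25.6 and 39.6 to 128.5 CPM. The 4 cholangiocyte markers were at 0.286 to 1.16 and 1.52 to 2.86 CPM. The endothelial set includes Cdh5, which the study lists among Kupffer identity genes that fell in these macrophages. By the median marker, the share of EC RNA, against ECs of the same genotype, overlapped. It was 0.181% to 1.90% in the controls and 0.0795% to 0.447% in the HSC-KO. The part of these marker differences in the results was not tested. The control macrophages held 0.910, 0.848 and 0.524 CPM of Mlxipl, those of HSC-KO mice 0.832, 1.82 and 1.26 CPM, and the groups overlapped. This gave a log2 fold change of 0.78 (SE 0.46, edgeR adjusted p = 0.29). The hepatocyte share of these libraries, 0.228% to 0.759% in the controls and 0.243% to 0.384% in the HSC-KO when livers of the same genotype are taken as the whole, corresponds to 1.06 to 3.54 and 1.13 to 1.78 CPM of Mlxipl, while 0.493 to 0.916 and 0.850 to 1.85 CPM of the library total was measured.

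Scd1 gave 51.8, 65.7 and 49.95 CPM without the deletion against 6.43, 1.90 and 6.46 CPM with it, with no overlap. Its log2 fold change was -3.50 (SE 0.45, edgeR adjusted p = 0.0018), or 11.3-fold lower. The hepatocyte share corresponds to 12.6 to 42.0 CPM of Scd1 in the controls and 23.2 to 36.7 CPM in the HSC-KO, each set against livers of the same genotype. With control livers as the whole for both groups, the HSC-KO value was 17.1 to 27.1 CPM. By the summed markers the HSC-KO libraries held less Scd1 than either level. Single markers moved apart, since the lowest of the 10 gave shares of 0.0866% to 0.345% in the controls and 0.00521% to 0.007775% in the HSC-KO, without overlap, and the highest gave 0.598% to 1.93% and 0.738% to 1.01%. Acly gave 188, 191 and 143 CPM against 66.4, 75.1 and 69.8 CPM, again with no overlap. Its log2 fold change was -1.31 (SE 0.14, edgeR adjusted p = 0.00085), or 2.47-fold lower. Both falls passed the test with each single library left out.

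The remaining genes did not pass. Fasn gave 22.97, 14.9 and 23.1 CPM against 13.7, 10.9 and 15.8 CPM, with a log2 fold change of -0.59 (SE 0.22, edgeR adjusted p = 0.11) and overlapping groups. Acaca was at 12.2 to 13.7 CPM and 7.47 to 11.7 CPM without overlap, but its log2 fold change of -0.36 (SE 0.20) had an edgeR adjusted p of 0.25. For Srebf1, Scd2, Elovl6, Thrsp and Pnpla3 the adjusted p was between 0.16 and 0.83. Thus 0 of 10 genes rose and 2 fell, against 19.2% of all genes tested that changed and 9.87% that fell. Both also passed the log2 limit of 1, as did 11.7% of all genes tested. No overlap between groups was seen for 3 of the 10 genes, against 40.3% of all genes tested.

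The changes in the 2 kinds of mutant macrophages were compared in 1 fit over 12 libraries. None of the 9 genes tested differed between them (0 of 9, with 0 at an unadjusted p below 0.05, where 16.3% of all genes tested lay, and 0 by DESeq2, against 2.94% of all genes tested). The difference for Scd1 was 0.19 (SE 0.82) and for Acly -0.39 (SE 0.20, edgeR adjusted p = 0.37). For Mlxipl, which has no test here, the log2 fold change was 0.78 in one and 6.70 in the other.

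None of the 10 genes passed the test in HSC-KO livers. The summed markers of several cell types did differ there without overlap. Kupffer cell markers were at 247 to 431 CPM in control and 0.931 to 2.88 CPM in HSC-KO livers, macrophage markers at 211 to 316 and 71.0 to 163 CPM, T, NK and B cell markers at 5.66 to 9.36 and 1.18 to 3.45 CPM, endothelial markers at 410.0 to 507 and 271 to 351 CPM, and stellate cell markers at 359.5 to 450 and 508 to 622 CPM. Hepatocyte markers were at 113400 to 134500 CPM in control and 137200 to 177300 CPM in HSC-KO livers. The part of these marker differences in the liver values was not tested. Mlxipl gave 391, 472 and 486 CPM in control livers against 440, 476 and 528 CPM in HSC-KO livers, with overlap. Its log2 fold change was 0.10 (SE 0.14, edgeR adjusted p = 0.87). Per kilobase, Scd1 led in control livers at 1085 ± 588 CPM per kb (SD, n = 3), followed by Fasn at 91.7 ± 43.0, Mlxipl at 81.2 ± 9.30, Acly at 69.9 ± 41.5 and Thrsp at 60.97 ± 41.5 CPM per kb. The order of the last 4 was within their spread, and Scd2 was last at 1.49 ± 0.371 CPM per kb. Scd2 averaged 8.44 CPM of the library total in control livers, 12.6 CPM in Smad4FF macrophages, 24.4 CPM in BMP9/10 control macrophages and 23.5 CPM in control ECs. These tables were counted separately, and the difference between them was not tested.

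Control liver replicate 2 stood apart from the other 2 controls. It was the lowest control in 8 of the 10 genes and the lowest of all 6 livers in 7. Fasn gave 1230, 463 and 1318 CPM in the controls against 722, 897 and 687 CPM in the HSC-KO. Scd1 gave 7936, 2233 and 5756 CPM against 7822, 12990 and 8874 CPM, with a log2 fold change of 0.90 (SE 0.42, edgeR adjusted p = 0.45). Mlxipl and Srebf1 did not share the low values, with the highest control at 1.03 and 1.23 times replicate 2. Pnpla3 varied most, at 14.8, 2.53 and 38.6 CPM against 4.22, 12.8 and 1.94 CPM, and its log2 fold change of -1.56 (SE 0.95) had an edgeR adjusted p of 0.59. It was -2.60 without HSC-KO replicate 2 and -0.44 without control replicate 3.

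**Figure D4:**
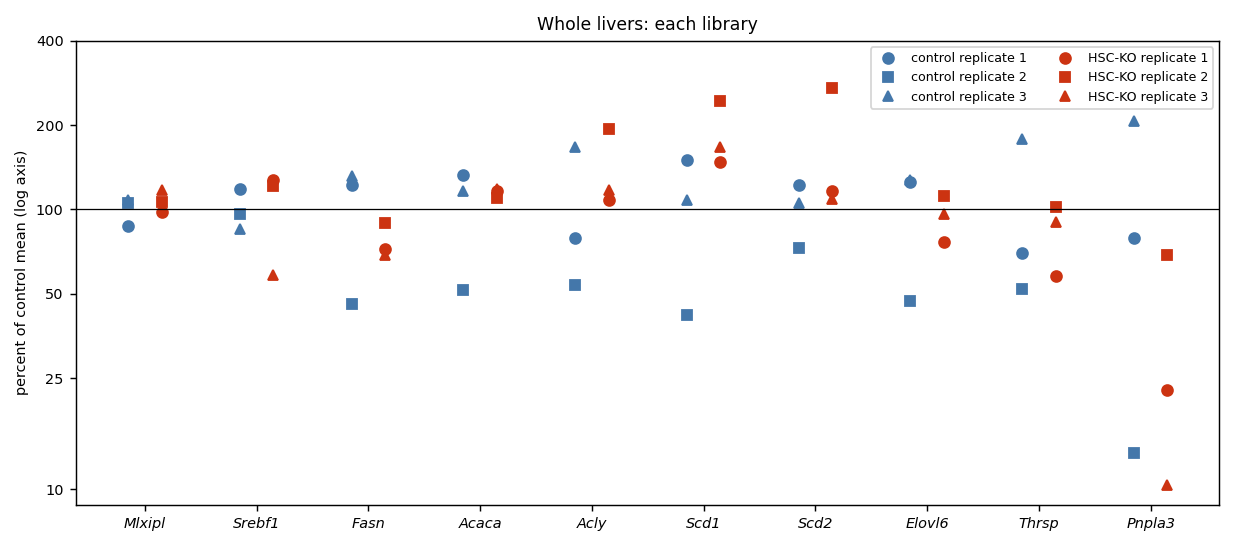
Level of each gene in each of the 6 whole livers, as a percent of the control mean, on a log axis. Control replicate 2 (blue squares) lies lowest of all 6 livers in 7 of the 10 genes, while Mlxipl varies little, and the groups overlap in all 10.

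The groups overlapped for all 10 genes in livers, against 19.7% of all genes tested that did not overlap. With edgeR 0 of the 10 genes passed (0 at an unadjusted p below 0.05, where 12.9% of all genes tested lay, and 0 by DESeq2), against 2.83% of all genes tested, or 2.48% with the log2 limit of 1. No gene passed with any single liver left out. The change in macrophages was then set against the change in livers in 1 fit over 12 libraries. In HSC-KO mice Scd1 differed by -4.43 on the log2 scale (SE 0.72, edgeR adjusted p = 0.0034), and it passed with each library left out. Acly differed by -1.82 (SE 0.51, edgeR adjusted p = 0.049), with an adjusted p of 0.061 to 0.13 in 11 of the 12 fits that left out 1 library, and by -2.41 without liver control replicate 3. These 2 of 10 compare with 9.11% of all genes tested. Between Smad4 cKO macrophages and HSC-KO livers, which differ in the deleted gene as well, Scd1 differed by -4.47 (SE 0.90, edgeR adjusted p = 0.018, and 0.051 without liver control replicate 3), or -5.68 without Smad4 cKO replicate 2, the only 1 of 9, against 3.67% of all genes tested.

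Thrsp, Fasn and Scd2 rose in ECs of HSC-KO mice and none of the genes tested fell. Control ECs gave 39.4, 32.8 and 42.1 CPM of Thrsp and HSC-KO ECs 794, 1054 and 749 CPM, with no overlap. This was a log2 fold change of 4.51 (SE 0.21, edgeR adjusted p = 3.9e-05), or 22.7-fold. Per kilobase Thrsp became the most abundant of the 10 genes in these cells, at 395 ± 75.1 CPM per kb (SD, n = 3) against 22.4 ± 1.76 for Acly. Its level reached 694% of that in control livers (955 against 138 CPM of the library total).

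Fasn gave 2.70, 3.95 and 2.92 CPM in control ECs against 11.4, 9.62 and 10.8 CPM in HSC-KO ECs. No control reached the lowest HSC-KO library, and the log2 fold change was 1.74 (SE 0.22, edgeR adjusted p = 0.0016), or 3.33-fold. Scd2 gave 27.9, 31.3 and 18.6 CPM against 59.3, 43.5 and 49.5 CPM, with no overlap. Its log2 fold change was 0.97 (SE 0.22, edgeR adjusted p = 0.019), just under the limit of 1, and the adjusted p was 0.058 without HSC-KO replicate 3 and 0.056 without control replicate 1. Elovl6 (0.72, SE 0.28) and Acaca (0.38, SE 0.15) had edgeR adjusted p of 0.13 and 0.12 with groups that did not overlap. Acly was at 126 to 134 and 110 to 128 CPM, with a log2 fold change of -0.15 (SE 0.12, edgeR adjusted p = 0.43). Pnpla3 (-1.44, SE 0.73) and Srebf1 (-0.42, SE 0.18) had edgeR adjusted p of 0.22 and 0.16, with groups that overlapped.

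Scd1 was low in ECs, at 1.62 to 2.20 CPM in controls and 1.67, 5.16 and 1.93 CPM in the HSC-KO, where replicate 2 stood alone. Mlxipl was all but absent, with 16, 0 and 0 reads against 0, 7 and 0 reads, and it failed the filter on low counts. A count of 0 allows up to 3 reads. Of the 9 genes tested 3 rose and 0 fell, against 20.1% of all genes tested that changed and 10.3% that rose. Thrsp and Fasn also passed the log2 limit of 1 (2 of 9, against 13.7% of all genes tested). The 5 genes with no overlap compare with 40.4% of all genes. The hepatocyte share of the EC libraries, against livers of the same genotype, was 0.0316% to 0.0941%, which corresponds to at most 0.129 CPM of Thrsp and 0.980 CPM of Fasn.

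The EC change was set against the other tissues of HSC-KO mice in fits chosen after the data had been seen. Against livers, Thrsp differed by 4.81 (SE 0.58, edgeR adjusted p = 0.00049) and Fasn by 2.16 (SE 0.47, edgeR adjusted p = 0.016) on the log2 scale, 2 of 10 genes against 7.58% of all genes tested. Against macrophages, Thrsp differed by 5.04, Scd1 by 4.08, Fasn by 2.32, Scd2 by 1.40 and Acly by 1.15, 5 of 10 genes against 15.4% of all genes tested, with edgeR adjusted p of 5.2e-05 to 0.013. The difference for Thrsp from livers was 4.10 without liver control replicate 3, and that for Scd1 from macrophages 3.40 without HSC-KO EC replicate 2. The adjusted p for Fasn against livers was 0.074 with the replicate number as a block. Within ECs, Thrsp and Fasn passed with each single library left out. In 3 mice ECs and macrophages came from the same animal, which the fit did not model. Endothelial RNA in livers, 2.60% to 2.77% of HSC-KO and 2.99% to 3.73% of control libraries by the median marker, corresponds to 24.8 to 26.5 and 1.03 to 1.29 CPM of Thrsp. Measured Thrsp was 72.6 to 135 and 72.3 to 241 CPM of the library total there.

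Beyond the 10 genes, 99 genes of 6 pathway lists were looked up in each comparison, and those that passed the filter on low counts were tested. The counts are to be read against all genes tested, of which 19.2% changed in HSC-KO macrophages, 7.74% in Smad4 cKO macrophages, 20.1% in HSC-KO ECs and 2.83% in HSC-KO livers. Among 16 lipogenic regulators, 3 rose and 5 fell in HSC-KO macrophages, 1 rose and 1 fell in Smad4 cKO macrophages, 4 rose and 3 fell in HSC-KO ECs, and 0 passed in HSC-KO livers. The 2 of 16 in Smad4 cKO macrophages lie near the share of all genes. Nr1h3, which encodes the liver X receptor LXRα that drives Srebf1 and Scd1, fell in both kinds of mutant macrophages. It dropped from 842 ± 270 to 43.2 ± 31.1 CPM (SD, n = 3) in HSC-KO macrophages, a log2 fold change of -4.29 (SE 0.54, edgeR adjusted p = 0.0017). In Smad4 cKO macrophages it dropped from 1326 ± 244 to 126 ± 20.6 CPM, a log2 fold change of -3.40 (SE 0.19, edgeR adjusted p = 0.00013). In HSC-KO ECs Nr1h3, named there after its values were seen, rose by 2.11 on the log2 scale (SE 0.36, edgeR adjusted p = 0.0061).

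Pparg, the master regulator of fat cell differentiation, rose in all 3 sorted-cell comparisons. Its log2 fold change was 1.73 (SE 0.18) in HSC-KO macrophages, 1.501 (SE 0.24) in Smad4 cKO macrophages and 2.57 (SE 0.31) in HSC-KO ECs, with edgeR adjusted p of 0.00066, 0.010 and 0.0013. In HSC-KO livers Pparg did not pass, at -1.25 (SE 0.27, edgeR adjusted p = 0.062) with groups that did not overlap. Ppargc1b, a coactivator of SREBP1, fell by 1.66 (SE 0.42, edgeR adjusted p = 0.031) in HSC-KO macrophages and by 2.57 (SE 0.49, edgeR adjusted p = 0.0098) in HSC-KO ECs. Mid1ip1, the close relative and partner of Thrsp, rose with it in ECs, from 8.59 ± 0.608 to 45.1 ± 8.98 CPM, a log2 fold change of 2.39 (SE 0.18, edgeR adjusted p = 0.00019).

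Among 21 genes of fatty acid supply, elongation and desaturation, 17 were tested in HSC-KO macrophages, of which 4 rose and 5 fell, against 19.2% of all genes. Acsl3, which activates fatty acids, rose by 1.80 on the log2 scale (SE 0.20), while malic enzyme Me1 fell by 1.962 (SE 0.55) and the acetate-activating enzyme Acss2 fell by 1.496 (SE 0.32). In Smad4 cKO macrophages 1 of 19 rose (Hacd3, 0.76, SE 0.13) and 1 fell (Acsl4, -0.88, SE 0.16), near the 7.74% of all genes. In ECs 3 of 18 rose and 2 fell, against 20.1% of all genes, with the second acetyl-CoA carboxylase Acacb at 1.08 (SE 0.19) and the desaturase Fads1 at -1.42 (SE 0.22). For triglyceride synthesis and lipid droplets 12 genes were tested in each sorted population. In HSC-KO macrophages 2 of the 12 passed, near the 19.2% of all genes (6 by DESeq2 and 5 with all 24 libraries in the fit), with Agpat2 up by 1.86 (SE 0.16) and Lpin1 by 1.64 (SE 0.29). The lipase Pnpla2 fell by 1.02 (SE 0.23) in Smad4 cKO macrophages, and in ECs the lipases Lipe and Mgll rose by 1.90 (SE 0.22) and 0.79 (SE 0.22) while Lpin1 fell by 1.18 (SE 0.23).

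Of 16 sugar metabolism genes linked to ChREBP, 1 rose, 8 fell and 7 did not pass in HSC-KO macrophages, where 9.87% of all genes tested fell. Pklr, the liver pyruvate kinase and a classical ChREBP target, had 86, 51 and 59 reads in the controls and 0 in all 3 HSC-KO libraries, and Gckr had 62, 71 and 183 reads against 0. Against a floor of 3 counts per library these were at least 26.9-fold and 48.4-fold lower, and the bound for Gckr was 23.9-fold without control replicate 3. Hepatocytes express these genes too, and the summed hepatocyte markers were at 279 to 931 CPM in the controls and 380 to 601 CPM in the HSC-KO, with overlap. The lowest single marker was lower in all 3 HSC-KO libraries, as given for Scd1, and its part in these falls was not tested. In Smad4 cKO macrophages, where Mlxipl was high, 1 of 14 genes of this list rose and 3 fell, against 7.74% of all genes. The riser was the glycerol phosphate enzyme Gpd1 (1.14, SE 0.25), and Arrdc4 (-1.42, SE 0.23) and Taldo1 (-0.86, SE 0.14) were among those that fell. In ECs 1 of 11 rose (Arrdc4, 1.41, SE 0.22) and 2 fell, among them Khk (-2.02, SE 0.21), against 20.1% of all genes.

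Cholesterol synthesis genes, which follow SREBP2, did not pass in either macrophage comparison by edgeR (0 of 16 each, with 1 each at an unadjusted p below 0.05, and by DESeq2 0 in HSC-KO and 1 in Smad4 cKO macrophages). In ECs 0 of 15 rose and 3 fell, among them Stard4 (-0.89, SE 0.14), a count at the 20.1% of all genes. Among fatty acid oxidation genes, 0 of 12 rose and 3 fell in HSC-KO macrophages, near the 19.2% of all genes that changed. Ppara had 78, 63 and 99 reads in the controls and 0 in the HSC-KO, at least 34.5-fold lower, and Hadhb fell by 0.48 (SE 0.10) on the log2 scale. As for Pklr and Gckr, the part of hepatocyte RNA in the Ppara fall was not tested. In ECs 1 of 12 rose (Acadvl, 1.11, SE 0.14) and 3 fell, among them Pdk4 (-2.65, SE 0.43), against 20.1% of all genes. In Smad4 cKO macrophages 0 of 13 passed by edgeR (1 at an unadjusted p below 0.05, 0 by DESeq2). In livers 0 genes passed in any of the 6 lists by edgeR. At an unadjusted p below 0.05, where 12.9% of all genes tested lay, there were 18 list genes. These were 2 of 16 lipogenic regulators, 1 of 20 fatty acid supply genes and 4 of 14 triglyceride genes. The rest were 6 of 17 sugar genes, 0 of 16 cholesterol genes and 5 of 13 oxidation genes. DESeq2 called 8 list genes, for which no share over all genes was computed.

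**Figure D5:**
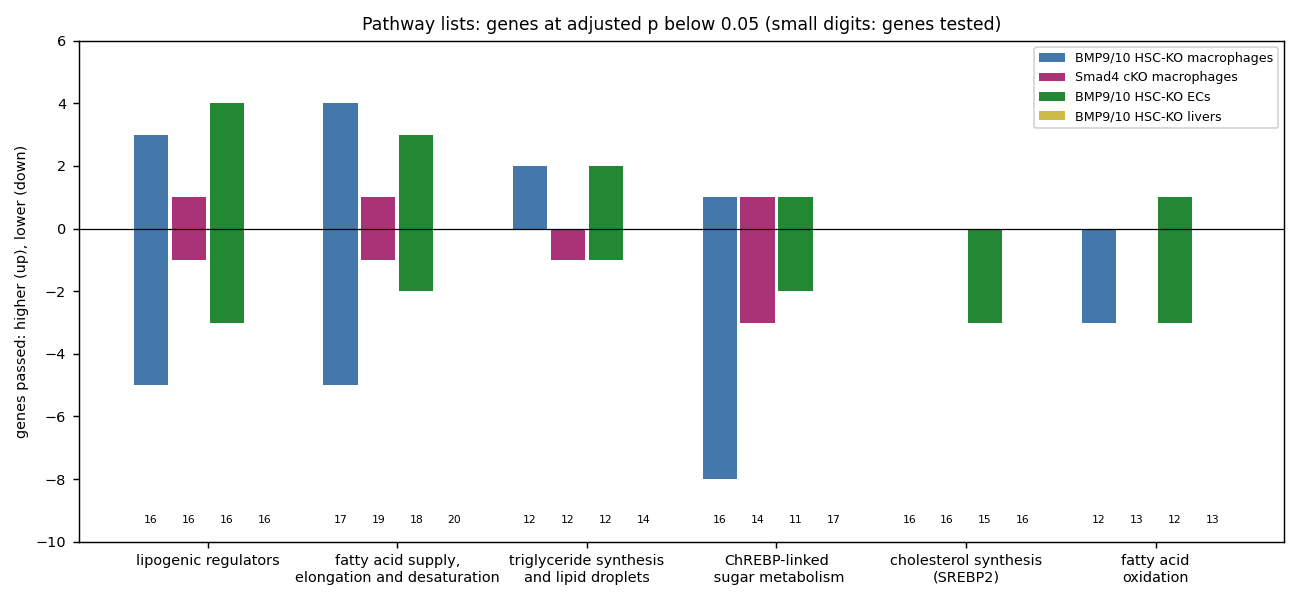
Number of genes of each pathway list that rose (bars up) or fell (bars down) at an edgeR adjusted p below 0.05 in each comparison, with the number tested in small digits. The tallest bar down is the 8 of 16 sugar metabolism genes that fell in HSC-KO macrophages, and livers have no bar.

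Finally, the genes whose log2 CPM was most like that of Mlxipl were listed by Pearson's r, as a description. Over the 12 macrophage libraries these were Sva (0.98), Klk13 (0.98), Gm45201 (0.97), Gm37068 (0.97) and Nat8l (0.97) among 18351 genes, a ranking that the 3 Smad4 cKO libraries set. By Spearman's rho they ranked between 526 and 613. Over all 24 libraries, which span 3 tissues, they were Agpat3 (0.96), Ebp (0.95), Orm2 (0.95), Hpn (0.95) and D230017M19Rik (0.93) among 20858 genes. Of the other 9 genes, Scd1 had the lowest r with Mlxipl in macrophages (-0.79), while over the 24 libraries Scd1 was at 0.75, Fasn at 0.83 and Scd2 at -0.72.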

How the data were processed

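The deposited tables hold raw read counts per gene; per the labels and the study's methods, the authors aligned reads with HISAT2 to mm10/GRCm38 and counted with featureCounts. Versions, annotation release and strand setting are not given in the sources used here. The labels and the study's text name different library kits.

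Counts were tested with edgeR 4.0.16 in R 4.3.3: filterByExpr (minimum count 10, minimum total 15), TMM scaling, quasi-likelihood test, Benjamini-Hochberg adjustment over all genes tested, passing at adjusted p below 0.05. Differences of changes were contrasts over 12 libraries. The test was checked on simulated data. Fits with DESeq2 1.42.0 were an alternative. The study calls the 3 replicates of a group independent biological replicates, and no pair of replicates was a duplicate.

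Entries that share a symbol (483 entries, 237 symbols) were kept as separate entries within each table. They were left out wherever tables were joined, which left 48337 symbols. Of 50-base words in the exons of Acaca, 30.4% also occur in other genes; for Pnpla3 it was 5.14%, Scd1 4.56%, Elovl6 3.98%, Scd2 3.97%, and under 0.5% for the rest. Reads there could be split or dropped, and overlapping opposite-strand genes cannot be separated without strand. Levels per kilobase used the merged exon length of GENCODE vM21. RNA shares of other cell types were marker CPM in a library divided by the marker mean in livers or ECs of the same genotype (controls for the Smad4 experiment), and these set tables side by side that were counted separately.

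The members and lists were chosen with earlier results of these data known. Named genes are the 10 members, at most 3 genes per list and comparison with the largest absolute log2 fold change among those that passed, and the 5 genes most like Mlxipl; some genes this rule names are not reported here. Replicate numbers were not taken as pairs.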

Additional observations from a re-analysis of the deposited data

Results flagged for a closer look

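The change in HSC-KO mice differed between tissues for several of the genes, by a test of the difference itself in edgeR. Between macrophages and livers, Acly differed by -1.82 and Scd1 by -4.43 on the log2 scale. Scd1 passed with each library left out, while Acly had an edgeR adjusted p of 0.061 to 0.13 in 11 of the 12 fits that left out 1 library. Between ECs and livers, Fasn differed by 2.16 (edgeR adjusted p = 0.074 with the replicate block) and Thrsp by 4.81. Between ECs and macrophages, Fasn differed by 2.32, Acly by 1.15, Scd1 by 4.08, Scd2 by 1.40 and Thrsp by 5.04. The comparisons with ECs were chosen after the data had been seen, and pairs that share a tissue share its libraries.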

How the results depend on the processing

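Calls were recomputed with DESeq2, other scalings, other filters, all 24 libraries in 1 fit, Xist as a covariate, the replicate block and each library left out. Scaling by library size alone moved the median of the genes counted here by 0.293 in ECs, 0.155 in Smad4 cKO macrophages and -0.109 in livers. The replicate numbers did not pair the samples (correlation of deviations -0.107 to 0.162). No call of Scd1 or Acly in HSC-KO macrophages or of Thrsp or Fasn in ECs was lost, and no gene passed in livers. Levels of a few CPM limit Elovl6 and Pnpla3 in sorted cells, Thrsp in BMP9/10 macrophages and Scd1 in ECs and in mutant macrophages, and 3 samples a group limit all. The causes of what follows were not tested.

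In Smad4 cKO macrophages the count of 2 genes became 1 with all 24 libraries in the fit, 1 with the replicate block and 1 with the log2 limit of 1, and it ran from 1 to 2 with a library left out. Acly was the gene lost in the first 3. In ECs the count of 3 became 5 with library size alone, and Elovl6 passed with Xist as a covariate. For macrophages minus livers the count of 2 became 1 with library size alone, 1 with all genes with a count, 1 with the replicate block and 1 with Xist as a covariate, and ran from 1 to 2 with a library left out. For ECs minus livers it became 1 with the replicate block, with Fasn lost.

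The sign of genes that did not pass turned as follows. With library size alone, the log2 fold change was 0.0095 for Srebf1 in HSC-KO macrophages, 0.0944 for Acaca, 0.0116 for Elovl6 and 0.1036 for Pnpla3 in Smad4 cKO macrophages, 0.1407 for Acly in ECs, and -0.008 for Mlxipl and -0.0858 for Srebf1 in livers. In livers Srebf1 was -0.0334 with all 24 libraries and -0.0407 with the replicate block, which gave 0.0232 for Elovl6. With a library left out, Srebf1 ran from -0.2412 to 0.0645 in HSC-KO macrophages, from -0.0266 to 0.1744 in Smad4 cKO macrophages and from -0.1601 to 0.3074 in livers. In the same way Acaca ran from -0.2322 to 0.0548, Elovl6 from -0.346 to 0.0194 and Pnpla3 from -0.2709 to 0.2101 in Smad4 cKO macrophages, Scd1 from -0.1007 to 0.8767 in ECs, and Acaca from -0.1023 to 0.4623, Elovl6 from -0.4044 to 0.1504 and Thrsp from -0.5594 to 0.4674 in livers.

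List counts that moved by over 1.5 times were these. With the log2 limit of 1, HSC-KO macrophages had 4 lipogenic regulators in place of 8 and 3 fatty acid supply genes in place of 9, Smad4 cKO macrophages 0 fatty acid supply genes in place of 2 and 2 sugar genes in place of 4, and ECs 2 fatty acid supply genes in place of 5. With DESeq2, HSC-KO macrophages had 6 triglyceride genes in place of 2 (5 with all 24 libraries) and 5 oxidation genes in place of 3, Smad4 cKO macrophages 3 triglyceride genes and 1 cholesterol gene in place of 1 and 0. In Smad4 cKO macrophages the replicate block left 1 fatty acid supply, 0 triglyceride and 1 sugar gene, all 24 libraries 2 sugar genes, and the stricter filter gave 2 triglyceride genes. In livers, in place of 0, lists had 1 to 3 genes with DESeq2, 1 with Xist as a covariate, 1 or 2 with library size alone, and 1 with all 24 libraries or the stricter filter. By the longest transcript, Mlxipl stayed first per kilobase in Smad4 cKO macrophages. Of the 5 genes most like Mlxipl in macrophages, 0 were among the first 50 by Spearman's rho.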
